A study of Arabidopsis thaliana with 24 samples.

Results

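Whole seedlings of the Arabidopsis thaliana mutant ref6-1 were compared with the wild type (WT, accession Col-0) in white light, after an earlier spell of shade. The members are 4 of the 24 RNA-seq libraries of the series, 2 of ref6-1 and 2 of WT, chosen by their labels alone. In both groups the seedlings were 4 days old when they received 8 h of priming shade, in which the ratio of red to far-red light was near 0.5. They then recovered for 40 h in white light and had none of the triggering shade, 1 h long, that other libraries received. Also used below are ref6-1 and WT with the same history plus that triggering shade (primed shade, 2 libraries each), pif7-1 in primed white light (2 libraries), and naive seedlings, which had white light in place of the priming shade. The labels do not describe the lesion of ref6-1 or pif7-1, and each mutant is 1 allele. Nothing in the labels says that the libraries of a group came from separate cultures, so p-values measure only the spread between these libraries, which may be technical.

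REF6 is a histone demethylase. It removes methyl groups from lysine 27 of histone H3, the mark that Polycomb proteins lay on silent genes, and it is recruited to DNA by its own zinc fingers. REF6 is also a flowering gene: mutants flower late and carry more RNA of the floral repressor FLC. PIF7 is the transcription factor that starts the growth response of seedlings to shade, and the series asks how a first shade shapes the response to a later one.

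Levels are given in TPM (normalized transcript abundance, a level per transcript length scaled to the same total in each library). Differences are ref6-1 minus WT on the log2(TPM + 1) scale with their standard error (SE), a scale that understates the change of genes at low TPM. A gene was called where limma's Benjamini-Hochberg adjusted p, over the 21473 genes tested, was under 0.05. REF6 (AT3G48430) stood at 6.16 and 6.84 TPM in ref6-1, against 8.13 and 9.28 TPM in WT, a difference of -0.37 with a 95% interval of -0.76 to 0.02, which did not pass (adjusted p = 0.20). A gene total cannot check an allele that leaves part of the transcript. ELF6, the closest relative of REF6, was at 10.2 and 9.19 TPM in ref6-1, against 8.54 and 9.28 TPM in WT and was not called. PIF7 was at 60.2 and 49.0 TPM in ref6-1, against 67.3 and 57.7 TPM in WT, and it fell to 2.02 and 2.52 TPM in pif7-1.

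The naive libraries labelled ref6-1 stood apart from the primed ones. ATXR7, a histone methyltransferase gene, was listed at 0 and 0.01 TPM in the naive white-light libraries labelled ref6-1, against 8.64 and 12.9 TPM in naive WT. In primed white light it was at 8.60 and 7.2 TPM in ref6-1, against 7.11 and 7.59 TPM in WT. Whether the naive and the primed libraries labelled ref6-1 are of the same line cannot be told from the labels, so no difference between them is read as an effect of priming. No genotype test below compares a naive library labelled ref6-1. In the tests these libraries enter only the estimate of spread, and without the 8 naive mutant libraries 3207 genes were called in place of 3332. For a few genes their levels are printed as values under that label.

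Green shoot genes were abundant in all 4 libraries: the light-harvesting list summed to 106800 and 123900 TPM in ref6-1 and to 87430 and 94090 TPM in WT. Among the flower and pollen genes, VGD1, GRP17, STK, SEP2 and AG were listed at 0 in all 4 libraries. The floral list summed to 6.35 and 5.35 TPM in ref6-1 and to 5.67 and 4.87 TPM in WT, but its members moved both ways. PI was at 3.83 and 2.87 TPM in ref6-1, against 0.74 and 0.57 TPM in WT. It was called higher (1.39, adjusted p = 0.0034). SEP1 was at 0.61 and 0.54 TPM in ref6-1, against 1.68 and 1.82 TPM in WT. It was called lower (-0.80, adjusted p = 0.048). With quantile normalization 1 of the 3 tested floral genes was called higher and none lower. The pollen and anther list summed to 13.7 and 13.5 TPM in ref6-1, against 20.2 and 22.0 TPM in WT, nearly all of it ACT11. The 13 root markers summed to 45.8 and 39.6 TPM in ref6-1, against 59.3 and 62.4 TPM in WT. The 11 seed storage markers summed to 140.8 and 248 TPM in ref6-1, against 45.0 and 34.9 TPM in WT. Chloroplast-encoded RNA was at 2950 and 2394 TPM in ref6-1 and at 9918 and 2729 TPM in WT, so that the first WT library was the high one. The part of these shifts in the differences below was not tested, and in whole seedlings fewer cells of a type and less RNA per cell cannot be told apart.

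Of the 21473 genes, 3332 (15.5%) were called, 952 (4.43%) higher in ref6-1 and 2380 (11.1%) lower. Over 2-fold, 283 were higher and 705 were lower. The median difference over all tested genes was -0.08. Without the first or second ref6-1 library it was -0.14 or -0.02, and without the first or second WT library -0.10 or -0.06. The second ref6-1 library had the fewest genes at 1 TPM of all 24 libraries, 18614. With quantile normalization the split was 1779 higher and 1953 lower, and in a fit of the 4 libraries alone 180 higher and 246 lower. Without the second WT library 1236 genes were called, without the second ref6-1 library 1360, and in a fit of the 4 libraries alone 426. Of 105 called genes that were examined by name, 63 kept their call without any 1 of the 4 libraries. Both ref6-1 libraries lay on the same side of both WT libraries for 56.2% of tested genes, so separation alone marks no gene out.

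**Figure D1:**
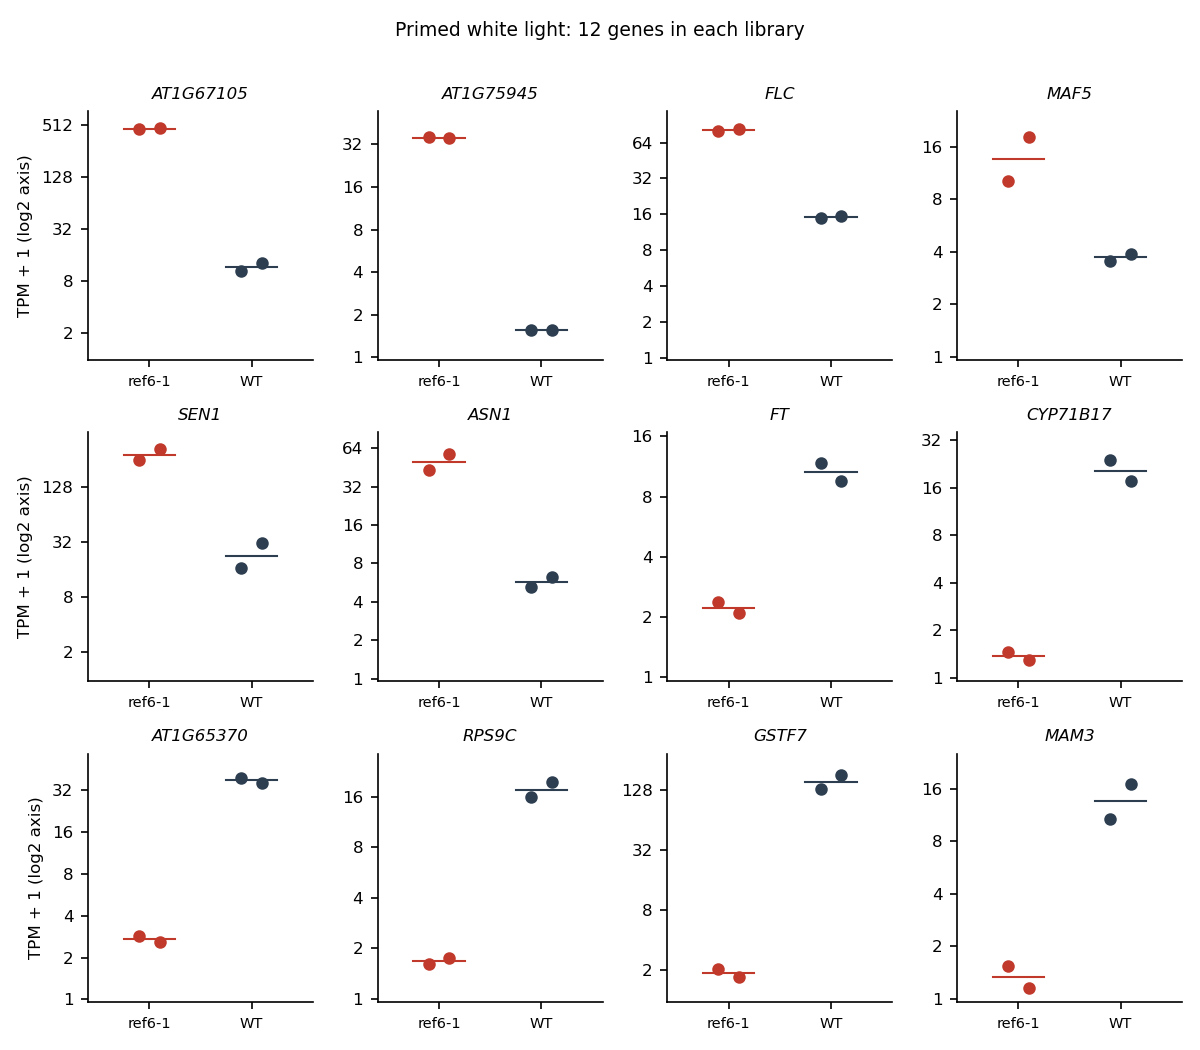
TPM + 1 (log2 axis) of 12 genes in each primed white-light library, ref6-1 (red) left of WT (dark blue); points are libraries and bars are their means on the log2 scale. In each panel the ref6-1 points lie apart from the WT points, from AT1G67105 at 456 and 463 TPM in ref6-1, against 9.47 and 11.8 TPM in WT to GSTF7 at 1.05 and 0.72 TPM in ref6-1, against 130 and 180 TPM in WT.

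The largest rise was in AT1G67105, which is annotated as a non-coding RNA. It was at 456 and 463 TPM in ref6-1, against 9.47 and 11.8 TPM in WT, a difference of 5.32 (SE 0.18, adjusted p = 8.2e-11). In primed shade it was at 384 and 408 TPM in shaded ref6-1, against 6.61 and 6.79 TPM in shaded WT. It was thus high in every primed ref6-1 library, under either light. The naive white-light libraries labelled ref6-1 held 4.43 and 4.19 TPM.

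Several further genes were close to silent in 1 genotype under both lights. AT1G75945, annotated as an uncharacterized protein, was at 34.9 and 34.5 TPM in ref6-1, against 0.56 and 0.56 TPM in WT (4.52, SE 0.46). CYP71B17, a cytochrome P450 gene, was at 0.47 and 0.29 TPM in ref6-1, against 22.9 and 16.6 TPM in WT (-3.90, SE 0.18, adjusted p = 2.6e-09). RPS9C, which codes for a copy of ribosomal protein S9, was at 0.62 and 0.75 TPM in ref6-1, against 14.8 and 18.6 TPM in WT (-3.39, SE 0.12). AT1G65370, a gene of the TRAF-like family, was at 1.85 and 1.57 TPM in ref6-1, against 38.6 and 35.2 TPM in WT (-3.81, SE 0.24). In primed shade these 4 genes passed again, at 4.67, -3.5, -3.96 and -3.87. In naive white light AT1G75945 was at 27 and 35.7 TPM under the ref6-1 label, against 0.47 and 0.95 TPM in WT. CYP71B17 was there at 22.8 and 24.2 TPM under the ref6-1 label and at 20.9 and 22.0 TPM in WT, and RPS9C at 10.7 and 9.03 TPM under that label and 10.3 and 11.2 TPM in WT.

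NUP98B, a nucleoporin gene, was at 43.0 and 33.3 TPM in ref6-1, against 3 and 3.5 TPM in WT (3.19, SE 0.28). ROSY1, which codes for a lipid-recognition protein, was at 251 and 221 TPM in ref6-1, against 32.6 and 18.9 TPM in WT (3.19, SE 0.40). SRO3, a gene of the SIMILAR TO RCD ONE family, was at 33.0 and 24 TPM in ref6-1, against 1.97 and 1.01 TPM in WT (3.58, SE 0.45). All 3 passed again in primed shade, at 2.39, 1.52 and 3.12. AT4G36850, of the PQ-loop repeat family, was at 104 and 105 TPM in ref6-1, against 8.75 and 6.11 TPM in WT (3.66, SE 0.38), while the naive white-light libraries labelled ref6-1 held 47.0 and 45.7 TPM. SRO3 overlaps AT1G70430, and since the sources used here do not say whether counting used strand, reads of such partners cannot be told apart.

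The sequence before the start of 4 called genes is shown because later results turn on them: FLC and ASN1 were called higher, CYP71B17 and GSTF7 lower. Each line is 250 bases on the gene's own strand, which is the minus strand in all 4, read from the RefSeq genome TAIR10.1 with that assembly's gene positions. The windows are chr5:3179449-3179698 for FLC, chr3:17441432-17441681 for ASN1, chr3:9569887-9570136 for CYP71B17 and chr1:659981-660230 for GSTF7. Capitals mark CACGTG (the G-box, bound by PIF factors among others), the 4 forms CTCTGTTT, CTCTGCTT, CTCTGTTC and CTCTGCTC of the motif reported for REF6, and TTGACC or TTGACT (the W-box of WRKY factors), on either strand.
FLC: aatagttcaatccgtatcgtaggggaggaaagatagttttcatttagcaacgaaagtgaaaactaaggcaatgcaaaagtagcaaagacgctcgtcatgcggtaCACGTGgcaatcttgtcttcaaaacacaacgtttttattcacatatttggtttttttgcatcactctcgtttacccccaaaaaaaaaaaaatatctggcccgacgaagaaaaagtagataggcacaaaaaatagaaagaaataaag
ASN1: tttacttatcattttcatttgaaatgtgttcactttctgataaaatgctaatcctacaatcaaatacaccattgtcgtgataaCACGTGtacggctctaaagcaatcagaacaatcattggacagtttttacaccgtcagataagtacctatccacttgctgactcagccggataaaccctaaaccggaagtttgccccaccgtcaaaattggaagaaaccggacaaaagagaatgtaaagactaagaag
CYP71B17: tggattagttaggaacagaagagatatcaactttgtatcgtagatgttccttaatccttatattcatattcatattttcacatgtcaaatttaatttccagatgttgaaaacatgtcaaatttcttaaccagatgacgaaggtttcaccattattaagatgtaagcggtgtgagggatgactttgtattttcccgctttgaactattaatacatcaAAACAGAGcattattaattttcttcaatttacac
GSTF7: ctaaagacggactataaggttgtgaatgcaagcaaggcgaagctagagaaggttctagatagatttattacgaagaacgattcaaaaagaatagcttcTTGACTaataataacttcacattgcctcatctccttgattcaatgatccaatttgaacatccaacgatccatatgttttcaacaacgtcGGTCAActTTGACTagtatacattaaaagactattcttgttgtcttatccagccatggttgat

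Over windows of 300 bases (250 before and 50 after the start), a form of the REF6 motif was found in 47 of 945 promoters of genes called higher (4.97%), in 172 of 2368 promoters of genes called lower (7.26%), and in 7.57% of the promoters of all 21180 tested genes with a window. CACGTG was found in 12.4% of promoters of genes called higher, in 7.39% of those called lower and in 8.65% of all. TTGACC or TTGACT, searched after the values were seen, was found in 29.2%, 36.4% and 32.3% of the same sets. These shares are descriptions with no test. The printed genes do not stand for the called genes in their motifs. FLC and ASN1 hold CACGTG, whereas AT1G67105, AT1G75945 and SEN1, also called higher, hold none in the 250 bases before their start. CYP71A12 and PER4, called lower, hold none of the marked motifs there. A window without a match says only that these letters are not in it.

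Among 15 flowering regulators, 2 were called higher and 2 lower. FLC (AT5G10140), a MADS-box repressor of flowering, was at 79.7 and 81.5 TPM in ref6-1, against 14.0 and 14.6 TPM in WT (2.42, SE 0.23, adjusted p = 9.3e-06). MAF5, a repressor of the same clade, was at 9.22 and 17.1 TPM in ref6-1, against 2.56 and 2.87 TPM in WT (1.87, SE 0.27). FT, the mobile signal that starts flowering and a target of FLC, was at 1.36 and 1.09 TPM in ref6-1, against 10.8 and 8.54 TPM in WT (-2.26, SE 0.31). FLC and MAF5 were thus higher and FT lower, while the repressor genes MAF1 to MAF4 and SVP were not called. TSF, the nearest relative of FT, was at 0 and 0.10 TPM in ref6-1, against 2.08 and 0.93 TPM in WT (-1.22), and lost its call without the first WT library (adjusted p = 0.067). FLC overlaps AT5G01675 in the annotation.

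In primed shade FLC was at 84.4 and 82.8 TPM in shaded ref6-1, against 11.5 and 14.5 TPM in shaded WT, and MAF5 at 9.23 and 9.30 TPM in shaded ref6-1, against 1.66 and 1.83 TPM in shaded WT. Both were called there. The FLC difference in shade minus that in white light was 0.19, with a 95% interval of -0.50 to 0.87, which does not show that the differences were equal. FT was at 3.45 and 4.63 TPM in shaded ref6-1, against 12.8 and 7.67 TPM in shaded WT (-1.13, adjusted p = 0.041). In naive white light FLC was at 2.86 and 2.60 TPM under the ref6-1 label, against 12.6 and 10.8 TPM in naive WT. This order is opposite to that in primed seedlings, and as with ATXR7 it cannot be told from the labels whether these naive libraries are of the same line.

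Of 8 genes known for carbon starvation, 7 were called higher in ref6-1 and none lower, with a median difference of 1.41. SEN1, whose RNA accumulates in darkness and sugar shortage, was at 248 and 330 TPM in ref6-1, against 15.4 and 29.8 TPM in WT (3.68, SE 0.38, adjusted p = 2.0e-05). ASN1, an asparagine synthetase gene, was at 42.4 and 57.2 TPM in ref6-1, against 4.24 and 5.30 TPM in WT (3.13, SE 0.38). Both ref6-1 libraries were far above both WT libraries in each gene. DIN10, of the raffinose synthase family, was at 256 and 255 TPM in ref6-1, against 72.2 and 62.2 TPM in WT (1.91, SE 0.19). DIN2, a beta-glucosidase gene and the list member that was not called, was at 2.95 and 2 TPM in ref6-1, against 6.64 and 7.57 TPM in WT, with a 95% interval of the difference of -2.14 to -0.32. ASN1 and DIN10 overlap an annotated neighbour.

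Of 23 clock genes 9 were called higher and none lower, a median of 0.32. PRR5, a repressor of the morning clock genes, was at 24.7 and 22.3 TPM in ref6-1, against 6.69 and 7.04 TPM in WT (1.64, SE 0.23, adjusted p = 2.5e-04). FKF1, a blue-light receptor that acts on flowering time, was at 6.46 and 6.75 TPM in ref6-1, against 2.64 and 3.26 TPM in WT (0.95, SE 0.19). RVE7, a MYB-like gene of the CCA1 family, was at 66.1 and 59.0 TPM in ref6-1, against 35.2 and 34.8 TPM in WT (0.82, SE 0.17). The morning genes CCA1 and LHY were not called. Without the second WT library or the first ref6-1 library 5 of the 23 were called, and without the first WT library 6.

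**Figure D2:**
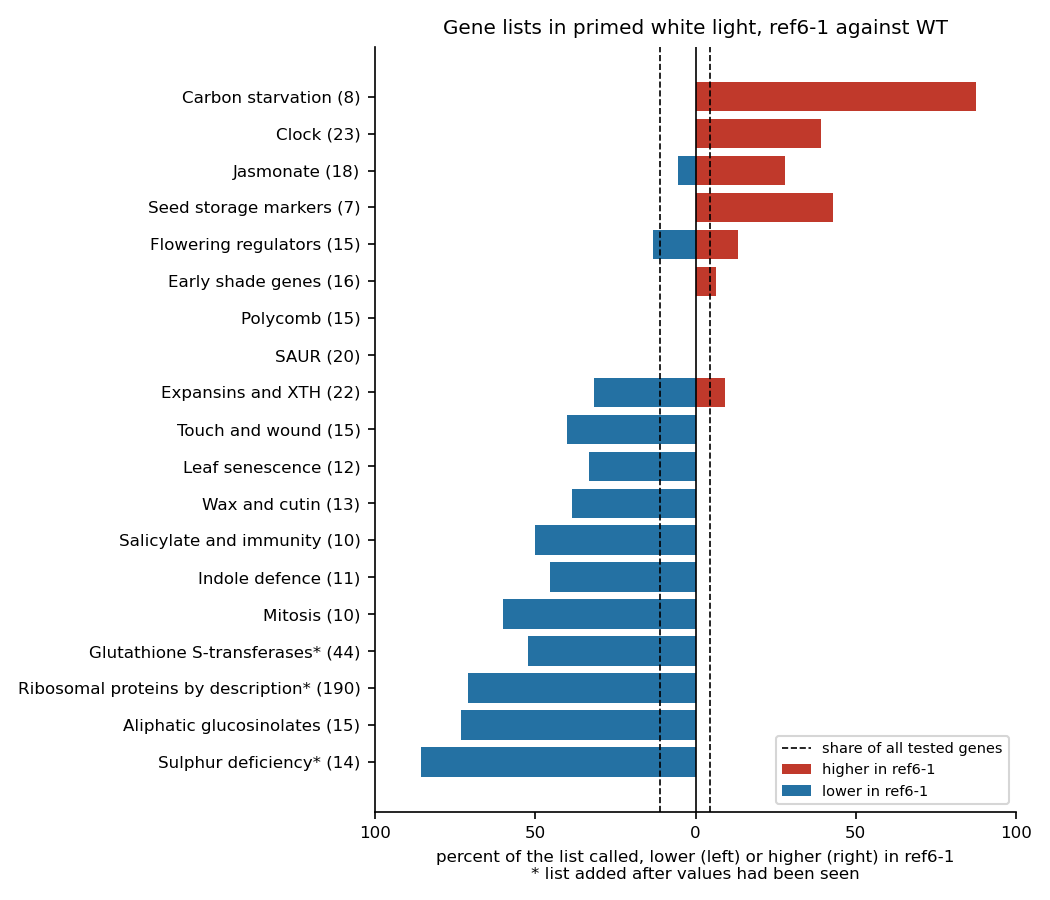
Percent of each plotted gene list called higher (right) or lower (left) in ref6-1 against WT in primed white light. The plotted lists are a chosen part of those counted. Lists near the share of all genes, such as light harvesting, cold and heat shock, are among those not plotted. Dashed lines mark the share of all tested genes, 4.43% higher and 11.1% lower. Asterisks mark lists added after values had been seen. The lines cross the bars of these lists too, but nothing is read from that. Carbon starvation stands at 7 of 8 called higher, and aliphatic glucosinolates at 11 of 15 called lower.

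Of 11 genes of indole defence metabolism 5 were called lower and none higher, a median of -1.31; without the second library of either genotype 3 were called. GSTF7, a glutathione transferase gene induced in immune responses, was at 1.05 and 0.72 TPM in ref6-1, against 130 and 180 TPM in WT (-6.36, SE 1.04, adjusted p = 8.8e-04). GSTF6, a close copy with which it may share reads, was at 1.99 and 2.28 TPM in ref6-1, against 104 and 159 TPM in WT (-5.37, SE 0.99). CYP81F2, an enzyme gene of indole glucosinolate modification, was at 0.47 and 0.30 TPM in ref6-1, against 16.2 and 19.5 TPM in WT (-3.77, SE 0.65). CYP71A12, of indole defence synthesis, was at 0.08 and 0.13 TPM in ref6-1, against 30.0 and 62.0 TPM in WT (-5.32). AT5G04175, annotated as an antisense RNA that overlaps AT5G25930, had a difference of about the same size: it was listed at 0 in both ref6-1 libraries and was at 33.8 and 45.7 TPM in WT (-5.33, SE 1.71). Naive white-light WT held 0 and 28.8 TPM of it, and its call was lost without any 1 of the 4 libraries (adjusted p = 0.12 and 0.20 without the first or second WT library, 0.13 and 0.17 without the first or second ref6-1 library). The CYP71A12 call was lost without the second WT library (adjusted p = 0.14), the first ref6-1 library (0.073) or the second ref6-1 library (0.093).

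WT was the high group in these genes, and their level was uneven elsewhere in the series. In primed shade GSTF7 was at 1.15 and 0.56 TPM in shaded ref6-1, against 11.4 and 5.03 TPM in shaded WT. Naive white-light WT held 9.63 and 11.4 TPM of it. The pif7-1 libraries of primed white light held 75.5 and 5.83 TPM, a gap between replicates of 1 group, and CYP71A12 likewise was at 33.8 and 0.12 TPM there. AT1G47130, annotated as an uncharacterized protein, was listed at 0 in both ref6-1 libraries and at 25.3 and 17.36 TPM in primed white-light WT. It was listed at 0 in naive white-light WT and in primed shade in both genotypes. FOX1, which codes for a berberine bridge enzyme-like protein, was at 0.06 and 0 TPM in ref6-1, against 11.5 and 21.6 TPM in WT (-4.03, SE 0.79). PER4, a peroxidase gene, was at 0.99 and 0.52 TPM in ref6-1, against 21.9 and 24.9 TPM in WT (-3.81, SE 0.64).

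Genes of early wounding and touch responses were lower as well, with 6 of 15 called lower and none higher, a median of -0.41. In primed shade 3 were called higher in ref6-1 and none lower, a median of 0.38. Against the same white-light WT libraries, pif7-1 had 4 called lower and none higher, a median of -0.43. Those WT libraries had 7 called higher than naive WT and none lower, a median of 0.71. ZAT10, a zinc-finger repressor gene induced by many stresses, was at 2.97 and 3.57 TPM in ref6-1, against 11.3 and 12.2 TPM in WT (-1.58, SE 0.28, adjusted p = 0.0016). ERF5 was at 2.88 and 2.77 TPM in ref6-1, against 8.33 and 8.94 TPM in WT (-1.33, SE 0.25), and ERF6, a factor of the same ethylene response family, at 2.74 and 2.77 TPM in ref6-1, against 7.81 and 9.05 TPM in WT (-1.32, SE 0.26). The touch genes TCH2, TCH3 and TCH4 themselves were not called. Without the second library of either genotype 3 of the 15 were called. With quantile normalization 1 list member was called higher and 5 lower.

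Of 10 salicylate and immunity genes 5 were called lower and none higher. None of the 10 was called without the second WT library or without the second ref6-1 library, 3 were called without the first library of either genotype, and 2 with quantile normalization. Among 12 leaf senescence genes 4 were called lower and none higher, and without the second library of either genotype 1 was called. SAG21, a late-embryogenesis-like gene induced by stress and ageing, was at 50.4 and 48.9 TPM in ref6-1, against 143 and 148 TPM in WT (-1.53, SE 0.25, adjusted p = 8.9e-04); it overlaps an annotated neighbour. Among 44 glutathione transferases, a list gathered from gene descriptions after values had been seen, 23 were called lower and none higher, a median of -0.93. Without the second ref6-1 library 8 of them were called, and without the second WT library 11. GSTF14 was at 2.09 and 1.08 TPM in ref6-1, against 28.6 and 43.5 TPM in WT (-3.84, SE 0.47).

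Genes of sulphur metabolism were lower. Of 15 genes for aliphatic glucosinolates, the sulphur-rich defence compounds made from methionine, 11 were called lower and none higher, a median of -1.27. MAM3, which lengthens the methionine chain, was at 0.53 and 0.15 TPM in ref6-1, against 9.69 and 16.1 TPM in WT (-3.35, SE 0.53, adjusted p = 6.2e-04). MYB29, a regulator of the pathway, was at 9.37 and 5.96 TPM in ref6-1, against 25.1 and 23.6 TPM in WT (-1.58, SE 0.27). Of the 15, 5 were called without the second WT library and 3 without the second ref6-1 library.

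Of 14 genes that mark sulphur deficiency 12 were called lower and none higher, a median of -1.59; the list was added after values had been seen. LSU2, a small protein gene induced by low sulphur, was at 4.88 and 3.08 TPM in ref6-1, against 29.4 and 28.0 TPM in WT (-2.60, SE 0.31, adjusted p = 8.7e-05). APR3, an adenosine phosphosulphate reductase gene of sulphate assimilation, was at 25.4 and 20.3 TPM in ref6-1, against 86.0 and 98.2 TPM in WT (-1.97, SE 0.24). APR2, of the same family, was at 46.2 and 43.2 TPM in ref6-1, against 121 and 133 TPM in WT (-1.49, SE 0.18). SDI2, another gene induced by low sulphur, was at 15.1 and 11.6 TPM in ref6-1, against 38.1 and 37.1 TPM in WT (-1.44, SE 0.19). SDI2 is not a member of the list counted above. APR2, APR3 and SDI2 overlap an annotated neighbour. Without the second library of either genotype 8 of the 14 were called.

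Genes of ribosomes and mitosis were lower in part. A list of 190 genes whose description opens with the name of the small or large ribosomal subunit was gathered after values had been seen. Among them 135 were called lower and none higher, a median of -0.49. The search also took in a few genes that are not cytosolic ribosomal proteins, among them the export factor gene NMD3 and the mitochondrial RPS10 and RPS19. Of the 190, 61 were called without the second WT library and 76 without the second ref6-1 library. Many of these genes have near-identical copies between which reads may be split. Of 10 mitotic genes 6 were called lower and none higher, a median of -0.59. CDKB1;1, a mitotic kinase gene, was at 3.06 and 2.76 TPM in ref6-1, against 5.06 and 6.61 TPM in WT (-0.80, SE 0.16), and lost its call without the second WT library (adjusted p = 0.069). None of the 10 mitotic genes was called without that library, where the median was -0.36, and 3 were called without the first or the second ref6-1 library.

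Core histones and kinesins, both gathered from descriptions after values had been seen, were also lower in part. The histone search took every gene whose description opens with a core histone name, so some may not be histones. Of 34 histone genes 1 was called higher and 14 lower, a median of -0.33, and without the second WT library 3 were called lower. Without the second ref6-1 library 2 histone genes were called higher and 5 lower. Of 37 kinesin genes 10 were called lower and none higher, a median of -0.36. With quantile normalization the kinesin median was -0.12, with 1 called higher and 8 lower. Without the second WT library the median was -0.21 and no kinesin gene was called, without the second ref6-1 library 1, and without the first ref6-1 library 6.

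Wall-loosening genes moved both ways: of 22 expansin and XTH genes 2 were called higher and 7 lower. XTH24, a gene for a xyloglucan-modifying wall enzyme, was at 385 and 411 TPM in ref6-1, against 137 and 142 TPM in WT (1.51, SE 0.19, adjusted p = 1.3e-04). XTH18, of the same family, was at 10.3 and 10.4 TPM in ref6-1, against 30.8 and 39.7 TPM in WT (-1.66, SE 0.22). EXPA15, an expansin gene, was at 9.81 and 8.60 TPM in ref6-1, against 23.7 and 31.3 TPM in WT (-1.47, SE 0.22). Of the list, 2 genes were called lower without the second WT library and 3 without the second ref6-1 library. Of 13 wax and cutin genes 5 were called lower and none higher, and without the second library of either genotype none was called.

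Seed genes were higher in ref6-1, with 3 of 7 tested markers called and none lower. EM6, a late embryogenesis abundant protein gene, was at 77.9 and 62.9 TPM in ref6-1, against 20.7 and 14.8 TPM in WT (1.94, SE 0.28, adjusted p = 3.5e-04). EM1, of the same family, was at 21.2 and 12.4 TPM in ref6-1, against 2.32 and 1.87 TPM in WT (2.48, SE 0.37). The storage proteins themselves were uneven. CRA1, a cruciferin gene, was at 8.84 and 85.7 TPM in ref6-1, against 1.83 and 1.51 TPM in WT. SESA5, a seed albumin gene, was at 3.95 and 117 TPM in ref6-1 and listed at 0 in both WT libraries. The second ref6-1 library thus held most of the storage protein RNA. Without the first ref6-1 library 5 markers were called higher, and without the second 2. In primed shade EM6 was at 23.9 and 31.8 TPM in shaded ref6-1, against 8.84 and 11.0 TPM in shaded WT.

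Hormone lists were mostly split. No auxin synthesis gene (of 9) and no SAUR gene (of 20) was called. Of 9 ethylene genes 3 were called higher and 2 lower. ACS6, a gene of ethylene synthesis, was at 4.22 and 3.18 TPM in ref6-1, against 7.79 and 8.63 TPM in WT (-0.98, SE 0.16). Without the second library of either genotype 1 ethylene gene was called each way, and without the first WT library 2 higher and 1 lower. Of 18 jasmonate genes 5 were called higher and 1 lower. MYC2, the main transcription factor gene of that pathway, was at 9 and 8.12 TPM in ref6-1, against 2.35 and 3.26 TPM in WT (1.34, SE 0.23). AOC3, an allene oxide cyclase gene, was at 1.76 and 1.22 TPM in ref6-1, against 5.65 and 5.18 TPM in WT (-1.37, SE 0.25), whereas its family member AOC2 was at 139 and 147 TPM in ref6-1, against 78.1 and 86.0 TPM in WT (0.80, SE 0.15). Without the second library of either genotype 3 jasmonate genes were called higher.

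Brassinosteroid and gibberellin genes also split, with 2 higher and 2 lower of 14 and 2 higher and 3 lower of 17. These calls are 28.6% and 29.4% of the lists, where 15.5% of all genes were called. The called genes are few, and nothing is read from them about the lists. CPD, an enzyme gene of brassinosteroid synthesis, was at 160 and 155 TPM in ref6-1, against 99.5 and 92.5 TPM in WT (0.70, SE 0.12). BR6OX1, of a late step, was at 0.60 and 0.61 TPM in ref6-1, against 2.79 and 2.08 TPM in WT (-1.09, SE 0.21). GA2OX6, an enzyme gene that inactivates gibberellins, was at 2.90 and 2.21 TPM in ref6-1, against 5.80 and 5.88 TPM in WT (-0.95, SE 0.17). Of the 14 brassinosteroid genes 2 were called without the second WT library. Of the 17 gibberellin genes 2 were called without the second WT library, 1 without the second ref6-1 library and 3 without the first library of either genotype. CYP707A3, which breaks down abscisic acid, was at 0.39 and 0.49 TPM in ref6-1, against 1.52 and 2.84 TPM in WT (-1.11, SE 0.21).

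Among early shade genes, the quick targets of PIF factors, 1 of 16 was called. This was PAR1, a bHLH brake on shade growth, at 8.98 and 8.76 TPM in ref6-1, against 3.26 and 4.31 TPM in WT (1.05, SE 0.29, adjusted p = 0.021). The PAR1 call was lost without any 1 of the 4 libraries, with adjusted p of 0.12 and 0.061 without the first or second WT library and 0.082 and 0.099 without the first or second ref6-1 library. Among light-harvesting genes 2 of 19 were called higher and 1 lower. That is 15.8% of the list, against 15.5% of all genes, and nothing is read from it about the list. LHCB4.3 was at 12.8 and 13.6 TPM in ref6-1, against 33.5 and 36.0 TPM in WT (-1.33, SE 0.21), and LHCB1.4 was at 6873 and 8396 TPM in ref6-1, against 3025 and 3394 TPM in WT (1.25, SE 0.18). LHCB1.4 has a near-identical copy, LHCB1.5, that was listed at 0 in all 4 libraries while reaching 23879 TPM in another library of the series, so its level is uncertain. MYBL2, a repressor gene of anthocyanin synthesis, was at 167 and 177 TPM in ref6-1, against 68.2 and 63.1 TPM in WT (1.38, SE 0.18).

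Of 11 cold genes 2 were called lower and none higher, where 15.5% of all genes were called. COR413IM1, a chloroplast membrane protein gene, was at 13.7 and 15.1 TPM in ref6-1, against 40.2 and 40.3 TPM in WT (-1.42, SE 0.21), and ERD10, a dehydrin gene, was at 16.7 and 14.3 TPM in ref6-1, against 31.4 and 32.9 TPM in WT (-1.01, SE 0.12). Of 16 heat shock genes 1 was called higher and 1 lower. Both shares are near that of all genes, and nothing is read from them about these lists. HSP17.6II, a small heat shock protein gene, was at 0.63 and 0.17 TPM in ref6-1, against 2.34 and 2.47 TPM in WT (-1.30, SE 0.22), and at 0.16 and 0 TPM in shaded ref6-1, against 5.81 and 8.32 TPM in shaded WT. In shade 8 of the 16 heat shock genes were called lower and none higher. In white light no gene of the Polycomb list (15), of the active-mark writers and remodellers (14) or of the H3K27 demethylases (4) was called; with quantile normalization 1 Polycomb gene was called higher.

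**Figure D3:**
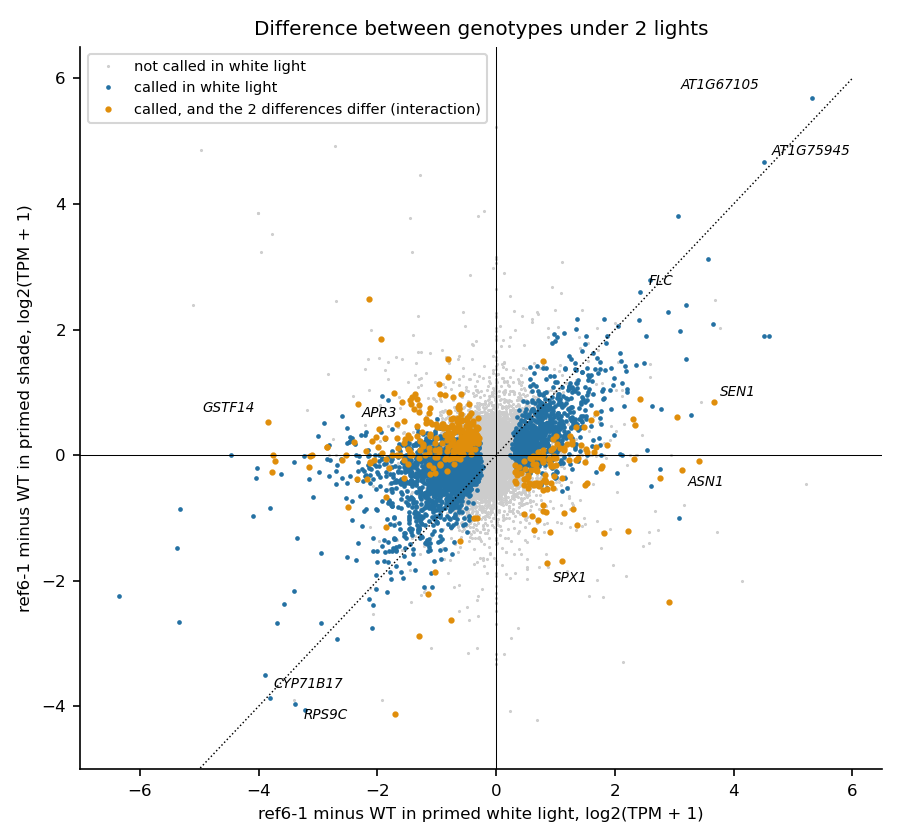
Difference between ref6-1 and WT (log2(TPM + 1)) in primed white light (horizontal) and primed shade (vertical) for each tested gene; grey points were not called in white light, blue points were called, and orange points were called and had a difference that itself differed between lights. AT1G67105 lies at 5.69 in shade and 5.32 in white light, ASN1 at -0.24 in shade and 3.13 in white light.

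The same genotype contrast in primed shade shares no library with that in white light. In shade 1336 genes (6.22%) were called, 596 (2.78%) higher and 740 (3.45%) lower. The split there was 876 higher and 843 lower with quantile normalization. Each library of the shade contrast mattered: without 1 of them 522 to 552 genes were called, namely 538 and 526 without the first or second ref6-1 library and 522 and 552 without the first or second WT library. Of the 952 genes higher in white light, 747 (78.5%) were also on the higher side in shade, against 41.5% of all tested genes, and 239 were called higher there. Those 239 are 25.1% of the white-light calls and 40.1% of the shade calls. Of the 2380 genes lower in white light, 1807 (75.9%) were on the lower side in shade, against 57.2% of all, and 333 were called lower, 14.0% of the white-light calls and 45.0% of the shade calls. The median difference of the higher genes was 0.30 in shade and 0.76 in white light, and that of the lower genes was -0.22 in shade and -0.73 in white light. Passing in white light chose these genes, so their white-light medians are raised in size by that choice.

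The test of the difference between lights called 568 genes (2.65%), 359 (1.67%) with a higher value in shade and 209 (0.973%) with a lower one. Of the genes called in white light it held 116 of 952 higher ones (12.2%) and 262 of 2380 lower ones (11.0%). The white-light libraries enter both tests, so choosing genes by their white-light call raises these shares, and nothing is read from them. Without the first WT library of white light 514 genes were called, and without any other single library 133 to 299. The lowest count was without the second WT library of shade. ASN1 was at 21.2 and 26.4 TPM in shaded ref6-1, against 21.8 and 36.3 TPM in shaded WT, and its difference in shade minus that in white light was -3.37 (SE 0.54, adjusted p = 0.0042). SEN1 was at 183 and 190 TPM in shaded ref6-1, against 81.5 and 131 TPM in shaded WT (-2.83, SE 0.54). In both genes white-light WT was the lowest of the 4 groups.

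**Figure D4:**
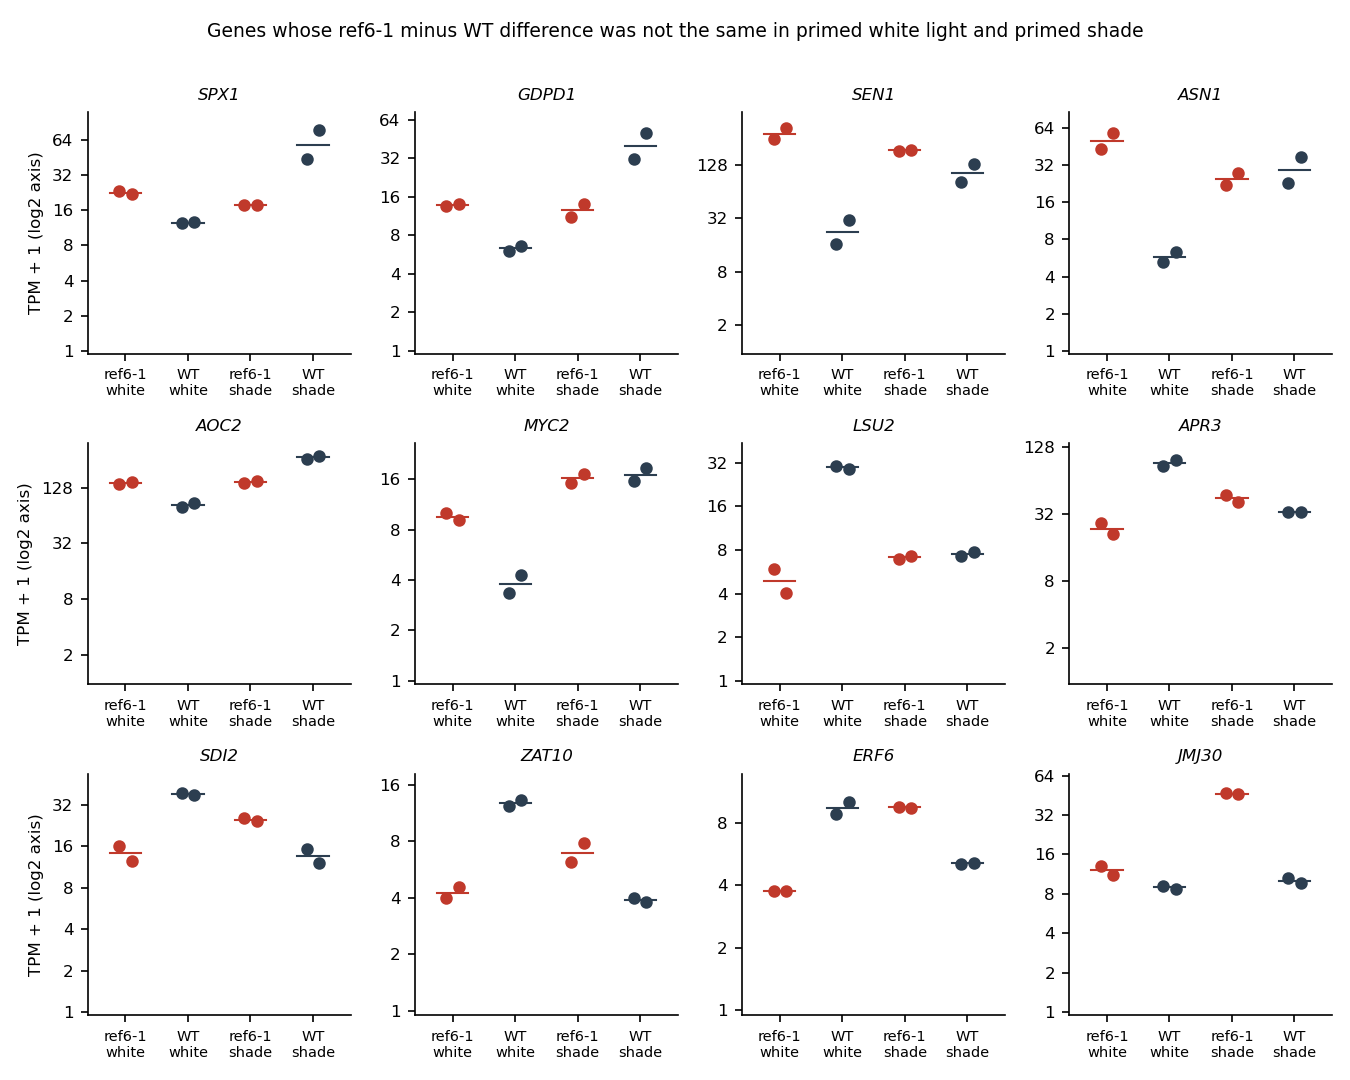
TPM + 1 (log2 axis) of 12 genes in each library of primed white light and primed shade, ref6-1 (red) left of WT (dark blue) in each light; points are libraries and bars are their means on the log2 scale. SPX1 and GDPD1 are highest in shaded WT, SEN1 and ASN1 are lowest in white-light WT, and JMJ30 is highest in shaded ref6-1.

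Phosphate starvation genes, a list of 12 added after values had been seen, were called higher in 3 cases and lower in 1 in white light, and lower in 6 cases in shade. SPX1, a phosphate sensor gene, was at 16.7 and 16.8 TPM in shaded ref6-1, against 43.0 and 76.1 TPM in shaded WT, and in white light at 22.1 and 21.2 TPM in ref6-1, against 11.4 and 11.7 TPM in WT. Its difference in shade minus that in white light was -2.57 (SE 0.30, adjusted p = 0.00084). The white-light call of SPX1 was lost without any 1 of the 4 libraries (adjusted p = 0.054 and 0.072 without the first or second WT library, 0.061 and 0.064 without the first or second ref6-1 library). GDPD1, a phosphodiesterase gene induced by low phosphate, was at 10.1 and 13.0 TPM in shaded ref6-1, against 30.6 and 49.5 TPM in shaded WT, and in white light at 12.4 and 13.0 TPM in ref6-1, against 5.06 and 5.59 TPM in WT (-2.80, SE 0.28). Without the second WT library 1 gene of the list was called higher in white light.

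The sulphur gene APR3 had a difference of -1.97 in white light and 0.42 in shade. That of LSU2 was -2.60 in white light and -0.08 in shade. LSU2 was at 5.91 and 6.33 TPM in shaded ref6-1, against 6.25 and 6.82 TPM in shaded WT, so that WT in white light was the group apart (2.52, SE 0.44, adjusted p = 0.0071). APR3 was at 47.0 and 40.4 TPM in shaded ref6-1, against 32.4 and 32.5 TPM in shaded WT (2.38, SE 0.34). ERF6 was at 8.55 and 8.41 TPM in shaded ref6-1, against 4.08 and 4.14 TPM in shaded WT, the reverse of its order in white light (2.22, SE 0.36). JMJ30, another H3K27 demethylase gene and a clock output, was at 45.8 and 45.7 TPM in shaded ref6-1, against 9.52 and 8.65 TPM in shaded WT. In white light JMJ30 was at 12.2 and 10.2 TPM in ref6-1, against 8.21 and 7.72 TPM in WT and was not called, and its difference between lights was 1.78 (SE 0.42, adjusted p = 0.035). AOC2 was at 142 and 152 TPM in shaded ref6-1, against 264 and 282 TPM in shaded WT, also the reverse of white light (-1.68, SE 0.21). AT5G01210, of an acyl-transferase family, was listed at 0 in both white-light ref6-1 libraries and at 6.35 and 5.98 TPM in white-light WT, but was at 25.4 and 26.0 TPM in shaded ref6-1, against 26.2 and 21.1 TPM in shaded WT.

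The first response of naive WT to shade shares no library with the ref6-1 contrast. It gave 7650 called genes (35.6%), 2681 higher in shade (12.5%) and 4969 lower (23.1%). Of the 952 genes higher in ref6-1, 364 (38.2%) rose in shaded naive WT and 122 (12.8%) fell. Of the 2380 genes lower in ref6-1, 161 (6.77%) rose there and 892 (37.5%) fell. The 364 genes higher in both are 13.6% of the genes that rose in shade, and the 892 lower in both are 18.0% of those that fell. SEN1 belonged to the first group, at 330 and 413 TPM in shaded naive WT, against 39.9 and 37.1 TPM in naive white-light WT. LSU2 was among those that fell, at 8.11 and 6.58 TPM in shaded naive WT, against 20.4 and 24.2 TPM in naive white-light WT. FLC was not called, at 10.8 and 12.1 TPM in shaded naive WT and 12.6 and 10.8 TPM in naive white-light WT.

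The pif7-1 seedlings of primed white light were compared with the same WT libraries, so the values of both mutants are given side by side with no measure of likeness. Against WT, pif7-1 had 1223 genes called (5.70%). SEN1 was at 248 and 330 TPM in ref6-1, 119 and 182 TPM in pif7-1 and 15.4 and 29.8 TPM in WT. ASN1 was at 33.8 and 59.1 TPM in pif7-1 and DIN10 at 226 and 315 TPM. LSU2 was at 4.88 and 3.08 TPM in ref6-1, 20.7 and 11.9 TPM in pif7-1 and 29.4 and 28.0 TPM in WT. Primed and naive WT in white light, again with shared WT libraries, differed in 1616 genes (7.53%), 398 (1.85%) higher and 1218 (5.67%) lower in primed WT. CYP81F2 was at 16.2 and 19.5 TPM in primed WT, against 0.75 and 0.32 TPM in naive WT.

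The direct test of ref6-1 against pif7-1 called 1764 genes (8.21%), 314 (1.46%) higher and 1450 (6.75%) lower in ref6-1. With quantile normalization the split was 672 higher and 802 lower, and a fit of these 4 libraries alone called 34 genes. Without the second ref6-1 library 359 genes were called, without the first pif7-1 library 548 and without the second 669. FLC was at 79.7 and 81.5 TPM in ref6-1, against 17.37 and 18.6 TPM in pif7-1 (2.1, SE 0.23, adjusted p = 3.8e-05). AT1G67105 (4.67), CYP71B17 (-4.25) and RPS9C (-3.18) passed in the same test. SEN1 (0.96, interval 0.15 to 1.76), ASN1 (0.13, interval -0.68 to 0.95) and DIN10 (-0.06, interval -0.47 to 0.35) did not, which does not show that the mutants were alike.

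**Figure D5:**
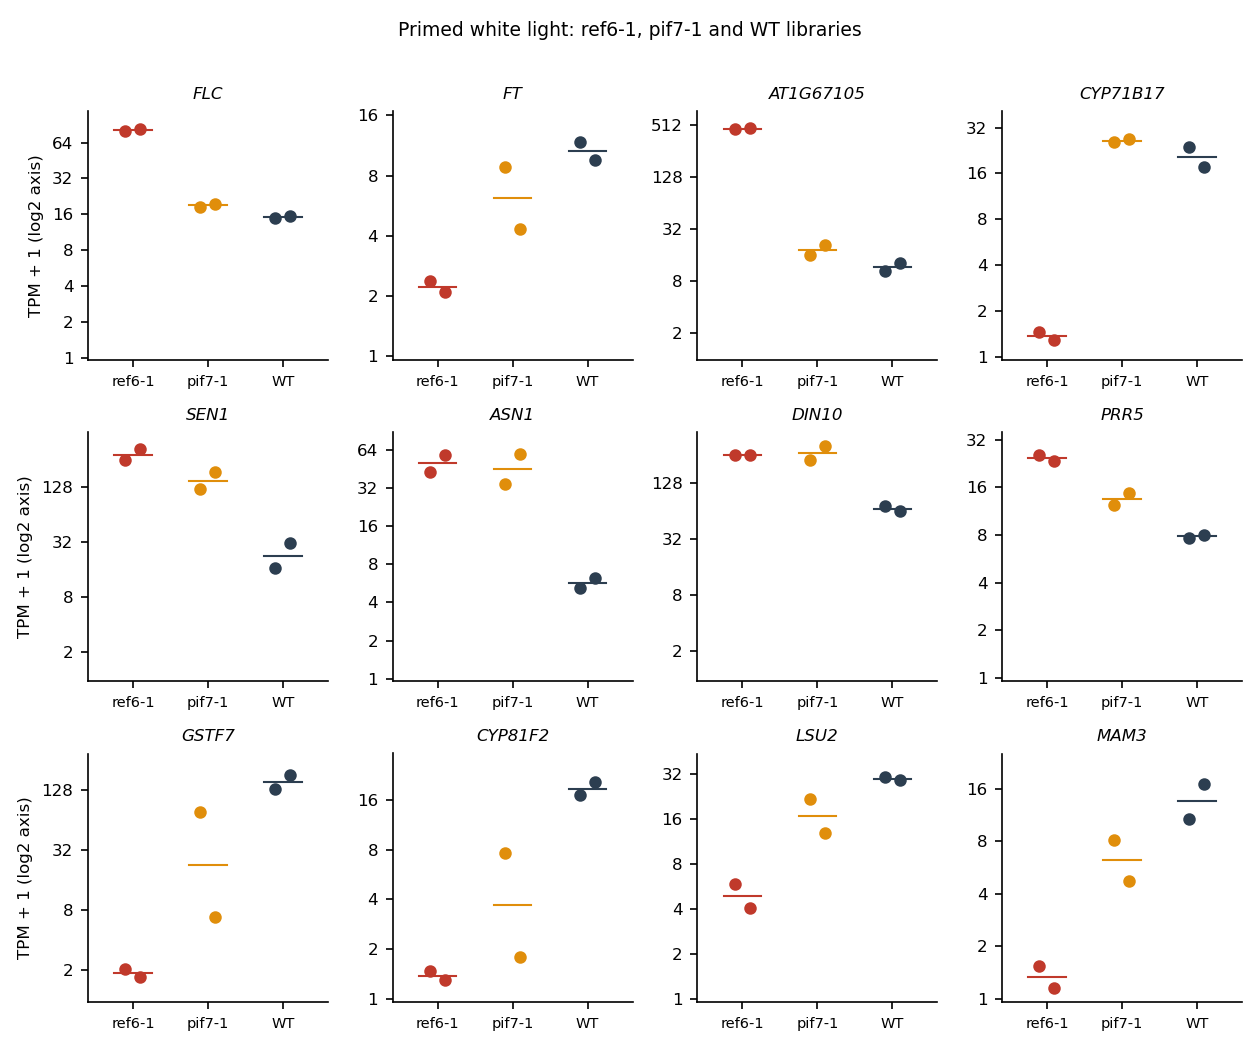
TPM + 1 (log2 axis) of 12 genes in primed white light in ref6-1, pif7-1 and WT, from left to right; points are libraries and bars are their means on the log2 scale. FLC, AT1G67105 and CYP71B17 set ref6-1 apart, SEN1, ASN1 and DIN10 are above WT in both mutants, and the 2 pif7-1 points of GSTF7 lie at 75.5 and 5.83 TPM.

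Calls were spread over the genome. Between 14.6% (chromosome 4) and 16.6% (chromosome 2) of the tested genes of a nuclear chromosome were called. Within 1 Mb on either side of REF6 on chromosome 3, 73 of 384 tested genes (19.0%) were called, against 15.5% of all.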

How the data were processed

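Single values per gene and library were deposited by the authors as TPM, with no replicates pooled. The aligner, counter and their settings are not given in the sources used here beyond names: the submitters' processing notes list FastQC, cutadapt, STAR, HTSeq and the build TAIR10, with no versions. Strand use and the gene lengths behind TPM are not given, and read depth is unknown because every library sums to the same total, so no counting interval was computed. Genes reaching 1 TPM in a library ranged from 18614 to 20007.

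Values were taken as log2(TPM + 1), so no count model was used. Genes at 1 TPM or more in at least 2 libraries were kept (21473 of 33026), and limma 3.58.1 in R 4.3.3 fitted 12 group means over all 24 libraries with a variance trend, 12 residual degrees of freedom and Benjamini-Hochberg adjustment at 0.05. Intervals are 95% intervals from that fit. Alternatives were the filter, the pseudocount, quantile normalization, nuclear genes alone, other sets of libraries, each library left out, and a replicate block. The labels do not say whether equal replicate numbers pair the samples. The deviations of same-numbered ref6-1 and WT libraries correlated at 0.04, within a range of -0.12 to 0.13 over all 66 group pairs. These values cannot tell whether samples were paired.

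Named genes were REF6, ELF6, PIF7 and ATXR7, the 15 largest changes each way among called genes whose groups were separated, up to 4 called members of each list, the 5 largest each way also called in shade, and the 5 each way with the smallest adjusted p of the difference between lights. CRA1, CCA1, LHY, ACT11, PI, SEP1 and the touch genes are given as list members. The members and lists were chosen with earlier results of these data known. Promoters were read from the RefSeq TAIR10.1 genome with python 3.11.15, since no promoter table was used; deposited values carry no coordinates. Some results are not reported here.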

Additional observations from a re-analysis of the deposited data

Results flagged for a closer look

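The genotype difference itself differed between primed shade and primed white light for 29 of 111 genes examined by name, by limma's test of the ref6-1 minus WT difference in shade minus that in white light (adjusted p under 0.05). Values below are that quantity in log2 units. The genes examined include some picked for the smallest adjusted p of this same test and others picked for large differences in white light, so nothing is read from their share. Over all tested genes the count was 568 (2.65%), and it changed with the libraries used, as given in the report.

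Sulphur genes, lower in ref6-1 in white light, gave positive values: LSU2 (2.52), APR3 (2.38), SDI2 (2.33) and APR2 (1.81). Positive values were also found for some genes of defence, wounding and stress and for AT1G07135, of no described function: GSTF14 (4.37), CYP81F2 (3.77), ZAT10 (2.43), AT1G07135 (2.34), CBP60G (2.24), ERF6 (2.22), SAG21 (1.79) and WRKY33 (1.75). The same sign was found for AT5G01210 (2.97), XTH18 (2.16), JMJ30 (1.78), LHCB4.3 (1.64) and BBX32 (1.09).

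Negative values were found for the starvation, clock and pigment genes ASN1 (-3.37), SEN1 (-2.83), MYBL2 (-1.43) and RVE7 (-1.22). Phosphate genes gave GDPD1 (-2.80) and SPX1 (-2.57). Hormone genes gave VSP1 (-2.07), AOC2 (-1.68), MYC2 (-1.41) and CPD (-0.65). Heat genes gave HSP17.6II (-1.58) and HSA32 (-0.86).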

How the results depend on the processing

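In ref6-1 against WT in primed white light, 3332 genes were called, 426 with only the 4 compared libraries, and 1236 to 2642 without 1 library. In primed shade 1336 were called, 2013 with only the 4 compared libraries, and 522 to 552 without 1 library. The test of the difference between lights called 568, 869 with only its 8 libraries, and 133 to 514 without 1 library. Against pif7-1, 1764 were called, 34 with only the 4 compared libraries, and 359 to 1210 without 1 library. The cause of these moves was not tested beyond the fewer libraries each fit holds. Every other alternative of these 4 counts stayed within 1.5 times, but quantile normalization moved the splits. In white light the split became 1779 higher and 1953 lower, and against pif7-1 it became 672 and 802. In primed shade it went from 596 higher and 740 lower to 876 higher and 843 lower. For the difference between lights it went from 359 and 209 to 473 and 368. The replicate block, although the labels do not say whether equal numbers pair the samples, gave 3299, 1307, 566 and 1757 called genes in the same 4 tests. Leaving out genes that overlap another, an alternative chosen after seeing the data, gave 2531. Of 105 called genes examined by name, 44 were called the same way under every alternative run, and 62 under all but the fit of the 4 libraries. Over 1513 alternatives for 111 genes, 1329 kept direction and side of the threshold, 181 lost the call, 2 gained it and 1 turned: ATXR7, not called, stood at -0.026 and 0.20 without the first or second ref6-1 library, against 0.09 with both. Read depth is unknown, and 2 libraries a group limit every test.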
